A study of Mus musculus with 6 samples.

Results

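The genes described here are 10 small nucleolar RNA (snoRNA) host genes, Gas5, Snhg1, Snhg3, Snhg4, Snhg5, Snhg6, Snhg8, Snhg12, Snhg14 and Snhg17, in mouse neural stem cells with and without knockdown of Mina53. They were chosen by name, as the rows of the deposited gene table that carry these symbols. Each symbol had 1 row, which makes 10 of the 25996 genes in the table. RNA sequencing covered 6 libraries of neural stem cells labelled as proliferating: 3 with a control hairpin (shControl, genotype labelled WT) and 3 with a hairpin against Mina53 (shMina53, genotype labelled Mina53 knockdown). Both groups carried a hairpin, and the labels name 1 hairpin per group and no rescue. Mina53, gene symbol Riox2, is a nuclear and nucleolar JmjC-domain oxygenase, and the title of the series presents it as an arginine demethylase that acts on the neural stem cell pool. The strain and age behind the cells, and whether the 3 libraries of a group came from separate cultures, were not given in the sources used here, so p-values measure only the spread between these libraries, which may be technical.

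A snoRNA host gene is transcribed as a long RNA whose introns contain snoRNAs. Splicing releases the introns, the snoRNAs are trimmed out and packed with core proteins, and the resulting particles guide chemical modification of ribosomal RNA: box C/D snoRNAs guide 2'-O-methylation and box H/ACA snoRNAs guide pseudouridylation. The spliced exons of many noncoding hosts are short-lived, because they are translated in part and then removed by nonsense-mediated decay. Gas5 and several Snhg genes start with a 5' terminal oligopyrimidine (TOP) tract, as the messages of ribosomal proteins do. Snhg14 is different in kind: it is an imprinted transcript of the Prader-Willi and Angelman region that carries arrays of repeated snoRNAs and runs antisense into Ube3a.

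By the GENCODE M21 annotation on mm10, the 9 members with a gene model held 240 annotated snoRNA genes on their own strand, of which 208 lay in Snhg14 and 32 in the other 8. Gas5 held 10, Snhg1 held 8, Snhg12 held 5, Snhg17 held 3, Snhg3 and Snhg5 held 2 each, and Snhg6 and Snhg8 held 1 each. In Gas5 the 2 models named Snord80 overlap, and in Snhg12 the 2 named Snora16a. The following snoRNAs are shown because they are the cargo of the members whose RNA passed the test below, with Snhg14's most frequent one for contrast. Capitals mark box letters found by exact match: TGATGA (box C) near the 5' end with CTGA (box D) near the 3' end, or the 6 letters ANANNA (box H) near the middle with ACA 3 bases before the 3' end. Snord99, Snora61 and 3 further snoRNA gene models belong to Snhg12, Snora24 to Snhg8, Snord80 to Gas5, and Snord50a and Snord50b to Snhg5.
Snord99: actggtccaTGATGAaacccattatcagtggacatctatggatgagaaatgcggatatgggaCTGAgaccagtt
Snora61: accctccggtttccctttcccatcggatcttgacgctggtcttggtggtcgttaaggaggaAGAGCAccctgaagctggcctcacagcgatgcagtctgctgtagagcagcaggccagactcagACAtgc
Snora24: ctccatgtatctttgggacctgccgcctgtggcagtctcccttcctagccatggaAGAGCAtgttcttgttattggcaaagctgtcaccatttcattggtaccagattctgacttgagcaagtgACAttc
Snord80: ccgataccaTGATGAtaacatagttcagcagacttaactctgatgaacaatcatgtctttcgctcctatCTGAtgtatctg
Snord50a: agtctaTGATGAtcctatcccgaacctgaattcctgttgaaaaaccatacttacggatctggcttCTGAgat
Snord50b: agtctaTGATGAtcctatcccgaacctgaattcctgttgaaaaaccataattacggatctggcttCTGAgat
Snhg14, most frequent repeat: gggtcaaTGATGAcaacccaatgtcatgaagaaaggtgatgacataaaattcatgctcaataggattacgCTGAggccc
On the mm10 assembly these lie at chr4:132310691-132310764 (Snord99, plus strand), chr4:132310240-132310369 (Snora61, plus strand), chr3:123507937-123508066 (Snora24, minus strand), chr1:161037601-161037681 (Snord80, plus strand), chr9:88521529-88521600 (Snord50a, minus strand) and chr9:88521797-88521868 (Snord50b, minus strand). By these letters 14 of the 32 snoRNAs outside Snhg14 held a box C/D pair and 6 an H/ACA pair, against 19.1% and 15.5% of all 1558 annotated mouse snoRNAs. These are counts of gene models: both overlapping models of Snord80 count as C/D and both of Snora16a as H/ACA. The 1558 include the members' own snoRNAs. Of their 297 C/D pairs, 189 lie in Snhg14 and 14 in the other members, so 19.1% is not a separate background. In Snhg14, 189 of 208 held a box C/D pair and none an H/ACA pair, and the 208 copies came down to 85 distinct sequences, of which the one shown occurred 33 times. A missing match says only that these exact letters are not in that window.

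**Figure D1:**
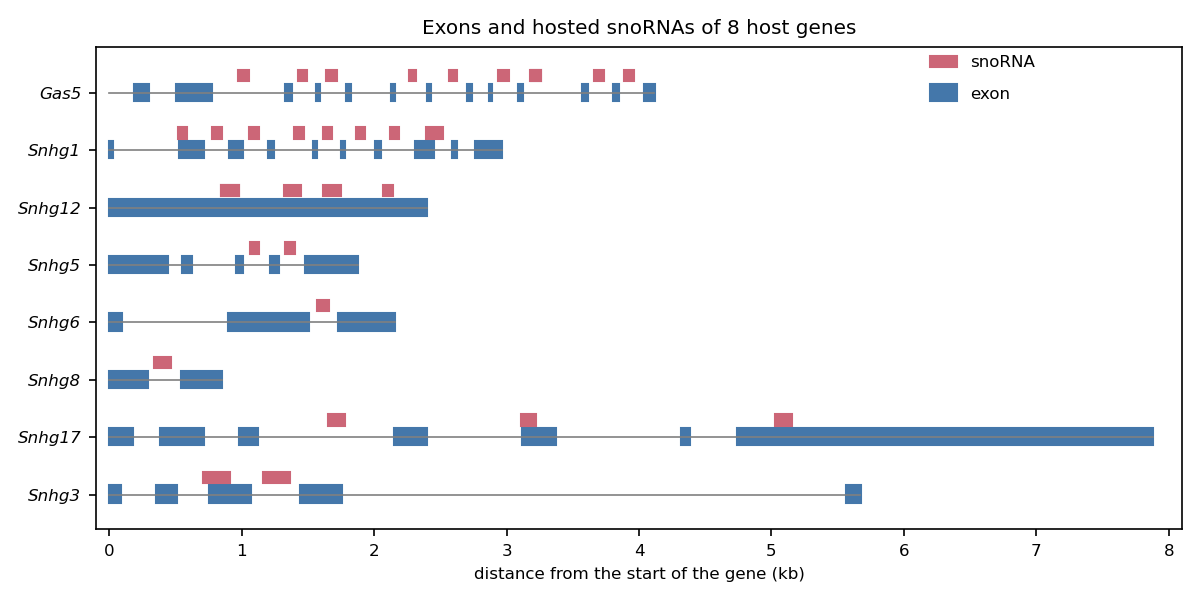
Exons (blue) and hosted snoRNAs (red) of 8 host genes by distance from the start of the gene in kb, from GENCODE M21 without retained-intron transcripts; Snhg14 is too long to draw and Snhg4 has no gene model used here. The 10 snoRNA models of Gas5, 2 of them overlapping, fall between its exons, while all 5 of Snhg12 fall inside bases that some transcript keeps as exon.

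The snoRNAs themselves were hardly measured. Of the 240 hosted snoRNA genes, 2 had a row in the table: Snord87 of Snhg6, with a mean of 1.19 scaled counts, and Gm26498 of Snhg14. The values below are therefore reads on the host transcripts, in scaled counts (reads divided by 1 factor per library, as deposited). Of the 32 snoRNAs outside Snhg14, 10 share bases with exons of non-retained transcripts of their host, so that host counts can include unspliced or snoRNA bases. No source used here states poly(A) selection or strand-specific counting.

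The knockdown was visible in Riox2, at 290, 333 and 307 scaled counts in the shControl libraries and 121, 125 and 121 in the shMina53 libraries. The mean fell to 39.4% of control (310 ± 21.3 to 122 ± 2.14, SD, n = 3 each; log2 fold change -1.34, SE 0.146, limma adjusted p = 9.1e-05; exact two-sided permutation p = 0.1, the smallest that 3 against 3 allows). Libraries held 13753857 to 16811085 reads on genes. Neural stem and progenitor markers summed to 136964 to 157438 scaled counts in shControl and 134995 to 139957 in shMina53; of these 11 markers 3 were called lower and 2 higher. The microglial genes Aif1, Cx3cr1 and Ptprc and the erythroid genes Hba-a1 and Hbb-bs were listed at 0 or had no row used, as was endothelial Cdh5. The fourth microglial marker summed to at most 4.77 scaled counts in a library. The other 2 endothelial markers summed to 37.6 to 62.0 in shControl and 59.0 to 65.4 in shMina53, and the 3 fibroblast and mural markers to 28.6 to 39.5 and 27.1 to 47.7. limma tested 2 genes of each list and called 0, also at an unadjusted p under 0.05. edgeR could test only 1 gene of each list and called 0. Astrocyte markers (4 genes, 1 called higher) summed to 13751 to 15236 in shControl and 14180 to 15295 in shMina53. Neuronal markers (5 genes, 1 called lower and 1 higher) summed to 10209 to 12783 and 13843 to 14664. Oligodendrocyte lineage markers (5 genes, 3 called lower) summed to 11519 to 12578 and 10331 to 13276. A sum follows its most abundant genes. The neuronal sum rose, yet 4 of the 5 genes had log2 fold changes below 0, with a median of -0.49. The medians were 0.35 for astrocyte markers and -0.79 for oligodendrocyte lineage markers. The part of these markers' cell types in the results below was not tested. In a bulk sample fewer cells of a type and less RNA per cell cannot be told apart.

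Host gene RNA was mostly lower after Mina53 knockdown. Snhg12, Snhg8, Gas5 and Snhg5 fell past the threshold of adjusted p 0.05, 0 of 10 rose past it, and 6 did not pass in either direction; over all 21500 genes tested, 8.26% were called, 4.47% lower and 3.79% higher. edgeR called Snhg12, Gas5 and Snhg8 lower of the 9 members it could test, against 6.48% of its genes, and 0 higher; at an unadjusted limma p under 0.05, 6 of the 10 were lower, against 12.2% of all genes, and 0 higher. Fold changes were below 0 in 9 of 10 members, against 48.5% of all genes. In 8 of 10 every shMina53 library lay below every shControl library, a separation seen in 14.1% of all genes. The median log2 fold change of the members was -0.51, and that of all genes 0.02. Features of the libraries that moved with these values are given after the single genes: the control library shControl 3 was highest for most members, and short genes as a class were high in that library.

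The level of the hosts in control cells, as scaled counts per kb of exon, ran from abundant to barely detected. Gas5 stood first with 2453 ± 505 scaled counts per kb (SD, n = 3), followed by Snhg1 with 770 ± 187, Snhg6 with 674 ± 196, Snhg5 with 500.1 ± 101, Snhg8 with 326 ± 90.0, Snhg12 with 157 ± 40.0, Snhg17 with 144 ± 3.58, Snhg14 with 18.7 ± 3.27 and Snhg3 with 2.24 ± 2.00. The ranges of the control libraries overlapped between Snhg1 and Snhg6, Snhg6 and Snhg5, and Snhg12 and Snhg17, so those neighbours were not ordered beyond their spread. Exon bases were counted over all non-retained transcripts, which makes the length of Snhg12 (2402 bases, with a median transcript of 915.5) and of Snhg17 (4368 bases, median 933) long beside their single transcripts, and their levels per kb low. After knockdown the ranges of neighbours did not overlap, and the order was the same except that Snhg12 (77.7 ± 15.4 per kb) lay below Snhg17 (122 ± 12.6 per kb).

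Snhg12 (ENSMUSG00000086290, chr4:132308623-132311024, plus strand) changed most among the members with more than a few reads. It hosts both box H/ACA snoRNAs (Snora16a, Snora44, Snora61) and the box C/D snoRNA Snord99. The control libraries held 302, 343 and 485 scaled counts and the knockdown libraries 168, 229 and 163. The groups did not overlap, and the highest knockdown value lay well under the lowest control value. The mean went from 377 ± 96.0 to 187 ± 37.0, or 49.6% of control (log2 fold change -0.996, SE 0.182, 95% interval -1.38 to -0.61, adjusted p = 0.00339). It was called whichever single library was left out, with a largest adjusted p of 0.0486, and lost only in limma without trend and robust variance.

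Snhg8 (ENSMUSG00000104960, chr3:123507552-123508404, minus strand) is a short host with 1 snoRNA, Snora24, an H/ACA guide. Control libraries held 155, 178 and 258 scaled counts and knockdown libraries 122, 116 and 87.0. The groups did not overlap, and shControl 3 was far above the other 2 controls. The mean went from 197 ± 54.4 to 108 ± 18.7 (log2 fold change -0.84, SE 0.204, interval -1.27 to -0.41, adjusted p = 0.0183). The call was lost without shControl 2, shMina53 2 or shMina53 3, with adjusted p up to 0.128. It was also lost with the length trend over exon bases removed (-0.41, adjusted p = 0.0996).

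Gas5 (ENSMUSG00000053332, chr1:161034422-161038539, plus strand) is the most abundant host of the set and packs 10 snoRNA gene models between its exons. It is known as a TOP transcript that accumulates when growth stops. Control libraries held 1717, 1987 and 2558 scaled counts and knockdown libraries 1335, 1509 and 1266. The groups did not overlap. The mean went from 2087 ± 429 to 1370 ± 125, or 65.6% of control (log2 fold change -0.59, SE 0.134, interval -0.87 to -0.31, adjusted p = 0.0128). Without shControl 2, shMina53 1 or shMina53 3 it was not called, with adjusted p up to 0.107. With the length trend over exon bases removed its log2 fold change was -0.23 and the call was lost (adjusted p = 0.101).

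Snhg5 (ENSMUSG00000097195, chr9:88521050-88522929, minus strand) carries the near-identical pair Snord50a and Snord50b shown above. Control libraries held 454, 469 and 644 scaled counts and knockdown libraries 335, 373 and 403. The groups did not overlap, with shControl 3 again apart from the other 2 controls. The mean went from 523 ± 106 to 370 ± 33.9 (log2 fold change -0.48, SE 0.145, interval -0.79 to -0.17, adjusted p = 0.0497). This call was marginal: edgeR gave an adjusted p of 0.0506, removing the length trend over exon bases gave -0.16 (adjusted p = 0.437), and of the 6 fits with 1 library left out only that without shControl 1 called it.

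Snhg6 (ENSMUSG00000098234, chr1:9941959-9944118, minus strand), the host of Snord87, did not pass the test, though its groups did not overlap. Control libraries held 602, 688 and 1027 scaled counts and knockdown libraries 451, 537 and 572. The difference, 772 ± 224 against 520 ± 62.3, had a log2 fold change of -0.54 (SE 0.171, interval -0.91 to -0.18, adjusted p = 0.0669), and DESeq2 called it with an adjusted p of 0.0193. Of its exons 127 bases lie opposite the last part of Mcmdc2, a gene with a mean of only 17.8 scaled counts.

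Snhg1 (ENSMUSG00000108414, chr19:8723475-8726443, plus strand) hosts 8 snoRNAs and starts 106 bases from Slc3a2 on the opposite strand. Its libraries held 541, 608 and 849 scaled counts in control and 441, 512 and 508 after knockdown. The groups did not overlap, but the difference missed the threshold: 666 ± 162 against 487 ± 40.0 (log2 fold change -0.43, SE 0.15, interval -0.74 to -0.11, adjusted p = 0.0892). Without shControl 1 its adjusted p was 0.0129.

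Snhg17 (ENSMUSG00000085385, chr2:158353700-158361580, minus strand) and Snhg4 (ENSMUSG00000097769) had the smallest differences of the members below 0. Snhg17 held 610, 631 and 641 scaled counts in control and 578, 470 and 544 after knockdown (627 ± 15.7 against 531 ± 55.2). It was almost level across the 3 controls. Its log2 fold change was -0.25 (SE 0.120, interval -0.50 to 0.01, adjusted p = 0.225).

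Snhg4 held 189, 166 and 207 scaled counts in control and 159, 139 and 155 after knockdown (187 ± 20.5 against 151 ± 10.3). In both genes the groups did not overlap. The log2 fold change of Snhg4 was -0.31 (SE 0.159, interval -0.64 to 0.03, adjusted p = 0.259).

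Snhg14 (ENSMUSG00000100826, chr7:59307924-59975759, minus strand) was the only member with a positive fold change. Control libraries held 483, 403 and 574 scaled counts and knockdown libraries 537, 551 and 666, so the groups overlapped. The means were 487 ± 85.5 and 585 ± 71.2 (log2 fold change 0.27, SE 0.142, interval -0.03 to 0.57, adjusted p = 0.259). Without shControl 3 it was called higher, with an adjusted p of 0.0208, and its sign turned when the length trend over exon bases was removed (-0.15). Its exons share 1803 bases with Ube3a on the opposite strand, whose own difference did not pass (2480 ± 209 against 2784 ± 334, log2 fold change 0.16, adjusted p = 0.428), and without stated strand-specific counting reads there cannot be divided between the 2 genes.

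Snhg3 (ENSMUSG00000085241, chr4:132348014-132353686, minus strand), host of Snora73a and Snora73b, was close to the limit of detection. It had 4, 3 and 0 reads in the control libraries and 2, 0 and 0 after knockdown. The ratio of 2 to 7 reads, scaled to library totals, was 0.314 with an exact 95% interval of 0.0318 to 1.65 that covers counting error only, so no difference was detectable at this depth (adjusted p = 0.564). Snhg3 starts 81 bases from Rcc1 on the same strand, shares 135 exon bases with it, and shares 71.5% of its exon bases with Gm17300 on the opposite strand, so that reads there cannot be assigned to 1 gene with certainty. Rcc1 itself did not pass (712 ± 27.2 against 699 ± 48.5 scaled counts, adjusted p = 0.913).

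**Figure D2:**
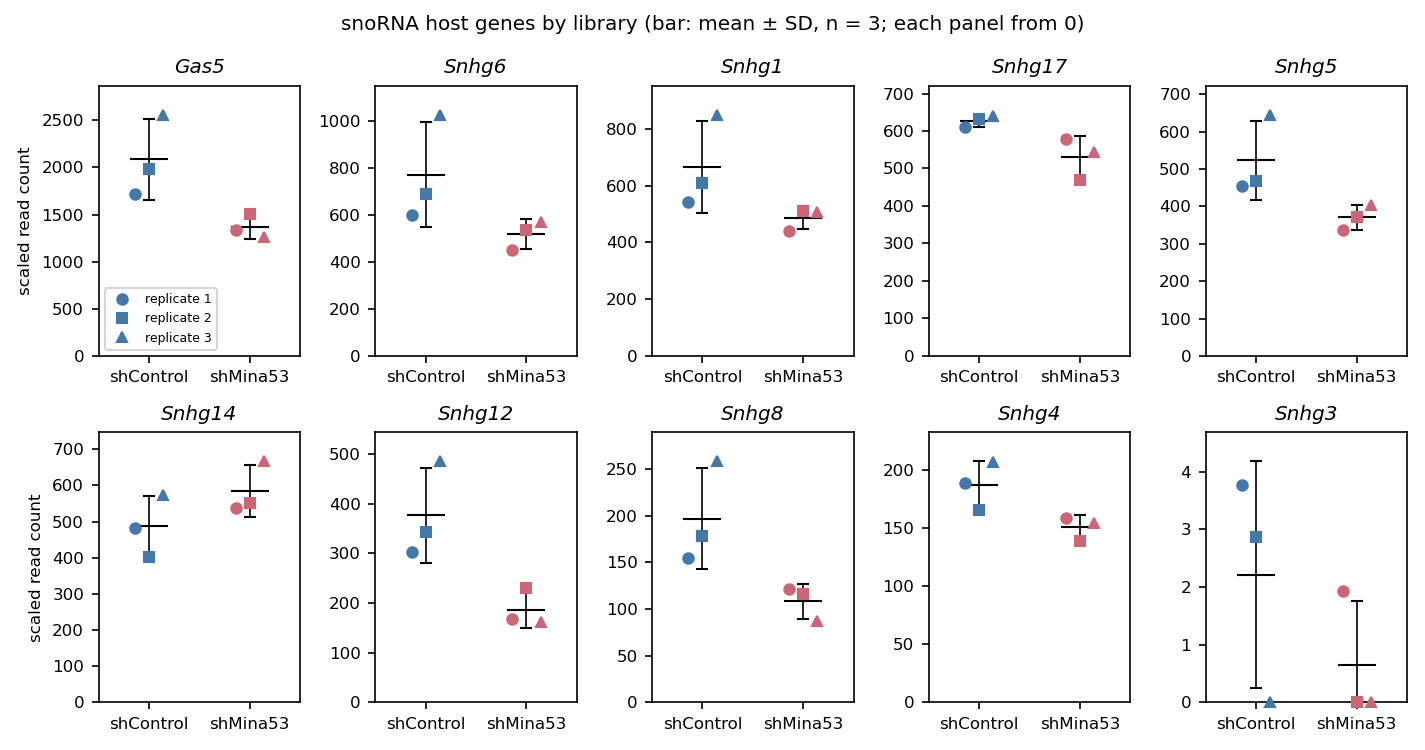
Scaled read counts of the 10 host genes in each library, 1 panel per gene with its own axis from 0; points are libraries and bars the mean ± SD of 3. In 8 panels the red knockdown points lie entirely below the blue control points; the triangle of shControl 3 is the highest point in 8 of the 9 genes with a mean of at least 50.

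**Figure D3:**
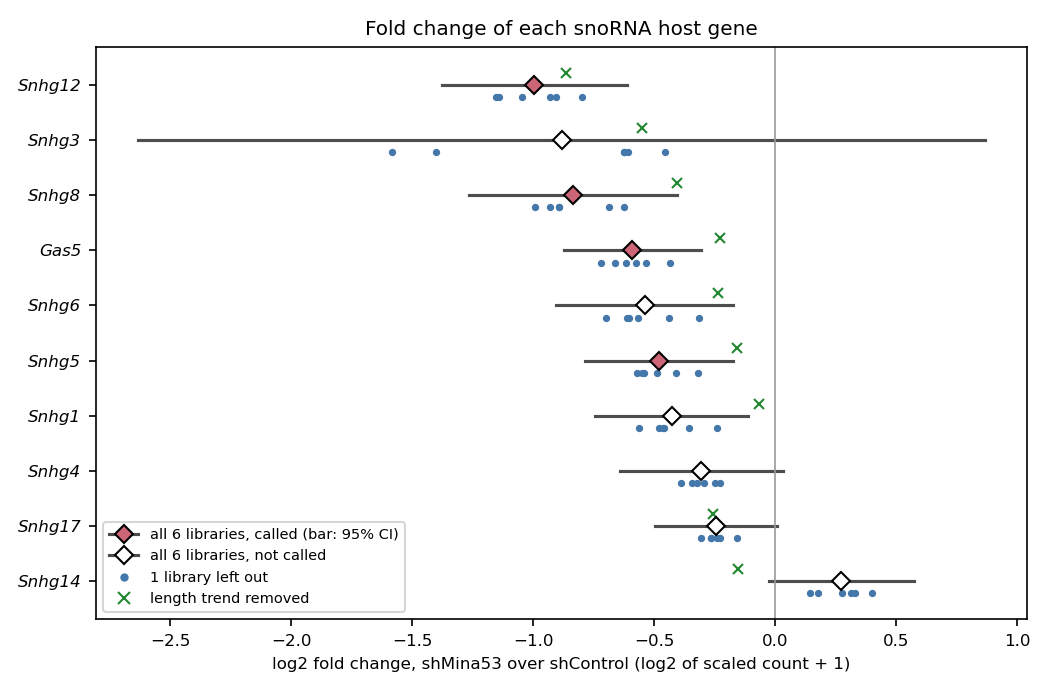
Log2 fold change of shMina53 over shControl for each host gene (diamonds with 95% intervals, filled where called), with the values after leaving out each library (dots) and after removing the trend with exon length (crosses; none for Snhg4). Snhg12 stays between -1.15 and -0.80 in each of these, while the crosses of Gas5, Snhg1, Snhg5 and Snhg6 move to between -0.24 and -0.07 and that of Snhg14 crosses 0.

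The library pattern of the members was shared. Of the 9 members with a mean of at least 50, 8 were highest in shControl 3 and Snhg14 was highest in shMina53 3. Relative to each gene's own 6-library mean on the log2 scale, their median was 0.06, 0.13 and 0.59 in the 3 controls and -0.33, -0.22 and -0.13 in the 3 knockdowns. The 79 ribosomal protein genes had medians of -0.02, 0.19 and 0.63 in controls and -0.19, -0.23 and -0.34 after knockdown. The 10 members together took 0.0330%, 0.0359% and 0.0459% of scaled counts in controls and 0.0267%, 0.0286% and 0.0281% after knockdown, and the ribosomal protein genes 2.64%, 3.03% and 3.97% against 2.31%, 2.25% and 2.10%.

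Gene length moved with this pattern too. A smooth curve of the centred log2 values of 11382 protein-coding genes over exon length had, at 1000 bases, values of -0.07, 0.12 and 0.46 in the 3 controls and -0.08, -0.15 and -0.26 in the 3 knockdowns. When that curve was subtracted, Snhg12 alone of 9 members with a length was called lower (log2 fold change -0.87, adjusted p = 0.00116; 4.9% of all genes were called lower and 5.8% higher), and the members' median was -0.24. With the curve drawn over each gene's median transcript length, an alternative added after the data were seen, Snhg12 (-0.89, adjusted p = 0.0019), Gas5 (-0.46, adjusted p = 0.0139) and Snhg8 (-0.70, adjusted p = 0.0198) were called, against 4.53% of all genes called lower, the median was -0.42 and Snhg14 stayed positive (0.37). By exon bases 6 of the 9 hosts have 604 to 1146 bases, Snhg14 is long by exon bases and short by its median transcript (770 bases), and the part of length in the differences was not tested. Without shControl 3 the median of the members was -0.32, with 3 called lower and 1 higher. In that fit 1287 of all 21500 genes were called lower and 1205 higher.

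**Figure D4:**
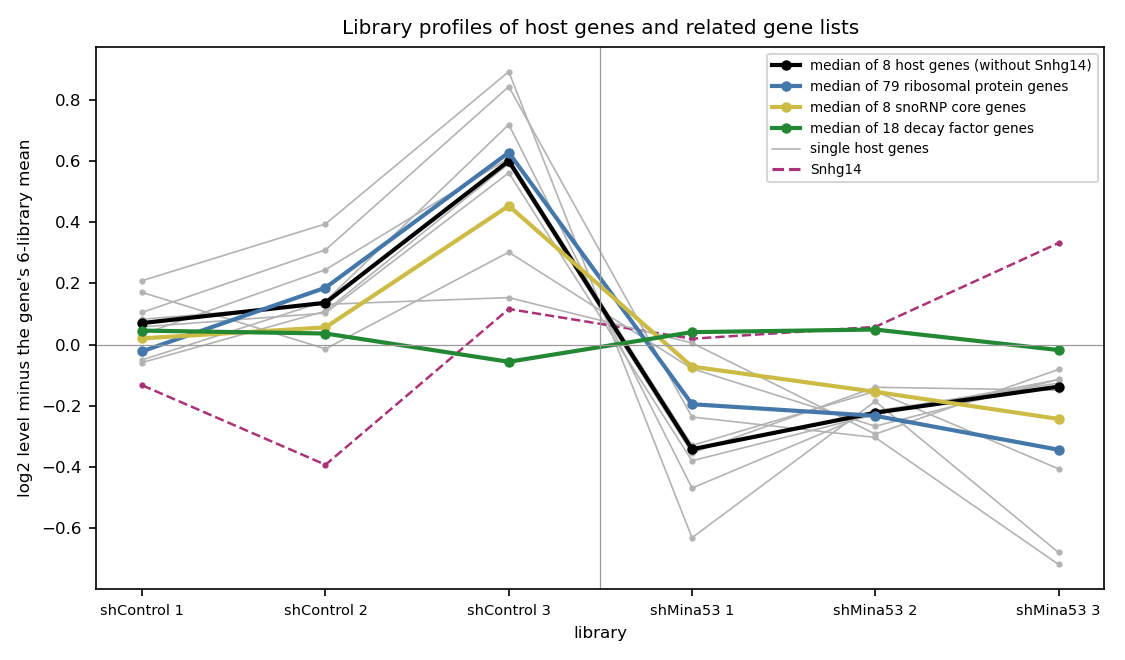
Log2 levels relative to each gene's 6-library mean across the 6 libraries, for 8 single host genes (grey), Snhg14 (dashed) and the medians of the host genes and 3 related lists. The median host gene and the median ribosomal protein gene both peak in shControl 3 (0.60 and 0.63) and lie below 0 in the 3 knockdown libraries; the median of the nonsense-mediated decay factors stays within 0.06 of 0.

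The starts of the hosts are shown next, because noncoding hosts are known for TOP starts. Each line gives 50 bases before and 30 bases from 1 RefSeq start (GRCm38.p6), on the gene's strand. Where a gene had several, the last in the direction of transcription was used, also for the gene sets compared below. Among the members this concerns Gas5 and Snhg17, with 2 starts each. Capitals mark TATAAA or TATATA lying 45 to 16 bases before the start, and a C followed by at least 4 bases that are C or T within 15 bases of the start; only the gene's strand was searched for what is marked, and both kinds of letters were chosen after these sequences had been seen. The first 4 lines are the members called lower, and the last 4 are the members with an entry that were not called.
Snhg12: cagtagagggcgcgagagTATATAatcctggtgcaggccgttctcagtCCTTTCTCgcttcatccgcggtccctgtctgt
Gas5: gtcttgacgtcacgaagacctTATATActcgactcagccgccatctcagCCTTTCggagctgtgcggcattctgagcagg
Snhg8: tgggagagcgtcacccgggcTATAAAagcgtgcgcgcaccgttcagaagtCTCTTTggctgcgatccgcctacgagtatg
Snhg5: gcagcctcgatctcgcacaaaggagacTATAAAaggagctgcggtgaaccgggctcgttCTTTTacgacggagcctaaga
Snhg1: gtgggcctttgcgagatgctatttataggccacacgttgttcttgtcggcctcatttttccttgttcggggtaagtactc
Snhg17: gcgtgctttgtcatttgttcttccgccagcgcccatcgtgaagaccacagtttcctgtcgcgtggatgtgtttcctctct
Snhg3: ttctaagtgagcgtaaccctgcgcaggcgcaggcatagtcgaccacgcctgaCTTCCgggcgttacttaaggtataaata
Snhg14: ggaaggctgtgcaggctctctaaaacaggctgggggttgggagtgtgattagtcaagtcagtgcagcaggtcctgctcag
The windows are chr4:132308628-132308707 and chr1:161035116-161035195 on the plus strand, chr3:123508307-123508386 and chr9:88522868-88522947 on the minus strand, chr19:8723437-8723516 on the plus strand and chr2:158361480-158361559, chr4:132353657-132353736 and chr7:60450148-60450227 on the minus strand. Of the 8 members with a RefSeq entry, 5 held the pyrimidine run, the 4 called lower and Snhg3, against 36.3% of 27025 genes and 58.1% of 62 ribosomal protein genes. Snhg1 and Snhg17 also hold stretches of C and T within 15 bases of the start. These begin with T and have too few bases after their first C to be counted. TATA letters stood in 4 of 8, which are the 4 members called lower, against 3.27% of all genes and 4.84% of ribosomal protein genes. On either strand they stood in 5 of 8, with the uncalled Snhg1 added, against 3.80%. Both kinds of letters were chosen with these sequences and earlier results known, so none of these shares is a test. A match is a description of letters and not evidence of a site in use. Apart from that of Snhg3, the RefSeq starts differ from the outermost GENCODE ones, and Snhg4 and Snhg6 had no entry. The RefSeq start of Snhg14, chr7:60450177, lies far outside the GENCODE model described above, which begins at chr7:59975759 on the minus strand. Its window therefore does not show the start of that model.

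Genes beside the members were read for comparison. Slc3a2, the heavy chain of an amino acid transporter, starts 106 bases from Snhg1 on the opposite strand and fell. Its means were 5957 ± 790 scaled counts in control and 4206 ± 359 after knockdown (-0.50 in log2, adjusted p = 0.0164), with the call lost without shControl 2, shMina53 2 or shMina53 3. Zbtb37, which starts on the opposite strand inside the 5' end of Gas5, did not pass (840 ± 371 against 1016 ± 111, log2 fold change 0.38, adjusted p = 0.607). At the GENCODE start of Snhg14, the gene model Gm38393, which shares 27 exon bases with Snhg14 and 589 with Snrpn, held 151, 109 and 61.1 scaled counts in control and 193, 195 and 223 after knockdown. These groups did not overlap (log2 fold change 1.01, SE 0.256, adjusted p = 0.0273; not called without shControl 2 or any 1 of the 3 knockdown libraries, nor with the length trend over the median transcript removed). Snrpn did not pass, with 506 ± 85.7 and 391 ± 28.2 (log2 fold change -0.36, adjusted p = 0.124).

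Of the 5 genes of the Prader-Willi and Angelman region with a row in the table, 0 were called by limma or by edgeR; at an unadjusted limma p under 0.05, 1 was lower and 1 higher. The 2 most abundant were Ube3a, the ubiquitin ligase given above, and Peg12, an imprinted gene with 636 ± 47.3 and 754 ± 47.1 scaled counts (log2 fold change 0.24, adjusted p = 0.209). The median of the 5 was 0.15.

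The other genes listed as noncoding snoRNA hosts had fold changes below 0 in 10 of 12 tested. By the annotation, 10 of the 12 hold a snoRNA, and the counts include all 12. Of the 12, 3 fell, 0 rose and 9 did not pass, with a median log2 fold change of -0.54. The largest fall was that of 2410006H16Rik, which went from 715 ± 183 to 262 ± 51.6 scaled counts (-1.43, SE 0.192, adjusted p = 0.000766). Zfas1, a host of box C/D snoRNAs and a TOP transcript, went from 636 ± 135 to 368 ± 18.9 (-0.76, SE 0.147, adjusted p = 0.00464), and lost its call only without shMina53 3 among the libraries left out. 1810026B05Rik, which has no annotated snoRNA in its span, fell too (-0.51, adjusted p = 0.017). At an unadjusted p under 0.05, 5 of the 12 were lower and 0 higher, and edgeR called 4 lower and 0 higher.

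Of 19 protein-coding hosts outside the ribosome, 3 fell, 0 rose and the median was -0.20. The 3 were Eef1b2, a translation elongation factor subunit (5948 ± 1527 to 3890 ± 24.3, -0.58, adjusted p = 0.0187), Eif4a1, the initiation helicase (-0.40, adjusted p = 0.0391), and Rack1, a protein of the small ribosomal subunit (-0.42, adjusted p = 0.0464). Nop56, Ncl and Dkc1, whose proteins act in the nucleolus, had log2 fold changes of -0.22, -0.20 and -0.17 and did not pass. Rcc1 and Hspa8 lay near 0, at -0.03 and 0.10.

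Ribosomal protein genes were read in 2 lists, hosts and others, whose difference was not tested. Of 21 that host snoRNAs, 12 fell, 0 rose and the median was -0.52; examples were Rpl13a (890 ± 166 to 552 ± 35.0, -0.68, adjusted p = 0.00535), Rpl5 (-0.65, adjusted p = 0.00628) and Rpl23 (-0.75, adjusted p = 0.00997). Of the other 58, of which 8 hold a snoRNA by the annotation, 32 fell, 0 rose and the median was -0.55; Rps16 (-0.67, adjusted p = 0.00509), Rpl8 (-0.69, adjusted p = 0.00601) and Rps13 (-0.82, adjusted p = 0.00618) were the 3 with the smallest adjusted p. With 1 library left out the counts ranged from 0 to 17 of 21 and from 3 to 50 of 58, and with the length trend removed they were 9 and 18. At an unadjusted p under 0.05, 18 and 50 were lower and 0 higher in either list, and edgeR called 12 and 31 lower and 0 higher.

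Further TOP messages outside the ribosome gave 6 lower and 0 higher of 12, with a median of -0.39. Eif4b, an initiation factor, had tight groups at 6802 ± 24.5 and 4482 ± 89.6 scaled counts (-0.60, adjusted p = 0.00171) and was called whichever library was left out. Hnrnpa1 (-0.45, adjusted p = 0.0156) and Eef1a1 (-0.44, adjusted p = 0.028) fell as well. Pabpc1 and Nap1l1, also on this list, had values of -0.08 and 0.02 and did not pass.

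The proteins that pack snoRNAs were examined next. Of 8 core genes, 2 fell, 0 rose and the median was -0.32. Those that fell were the H/ACA particle proteins Nhp2 (1093 ± 204 to 696 ± 159, -0.66, adjusted p = 0.0281) and Gar1 (392 ± 52.9 to 274 ± 52.8, -0.53, adjusted p = 0.0495; not called by edgeR). The other H/ACA proteins, Nop10 (-0.53, adjusted p = 0.0853) and Dkc1 (-0.17, adjusted p = 0.405), did not pass. The box C/D proteins Fbl, the methyltransferase, Snu13, Nop56 and Nop58 had fold changes from -0.36 to -0.10 and did not pass either; the particle types were not tested against each other. With the length trend removed 0 of the 8 were called. Of 11 assembly factors, 1 fell, 0 rose and the median was -0.13; it was Ruvbl2, a AAA ATPase (1723 ± 160.3 to 1321 ± 111, -0.38, adjusted p = 0.0457).

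Decay genes were read because nonsense-mediated decay removes spliced host RNA. Of 18 factors, 0 fell, 1 rose and 17 did not pass, with a median of -0.06; at an unadjusted p under 0.05, 3 were lower and 2 higher, and edgeR called 0 lower and 1 higher. The one that rose was Nbas, a trafficking protein also tied to decay (662 ± 119 to 893 ± 10.9, 0.45, adjusted p = 0.0446, not called without shControl 2 or any 1 of the 3 knockdown libraries). Upf1, the central helicase, held 1725 ± 188 and 1643 ± 181 (-0.07, adjusted p = 0.776). Of 15 protein-coding transcripts known as decay-sensitive, 3 fell, 0 rose and the median was -0.23: Ddit3 (901 ± 281 to 364 ± 40.7, -1.27, adjusted p = 0.000936), Tbl2 (-0.65, adjusted p = 0.00181) and Atf4 (-0.65, adjusted p = 0.00612). Ddit3 and Atf4 are known as transcription factors of the integrated stress response.

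These list counts moved with single libraries. With 1 library left out, the number called lower ran from 1 to 5 of the other noncoding hosts, 0 to 5 of the protein-coding hosts, 1 to 9 of the further TOP messages, 0 to 4 of the core genes, 0 to 2 of the assembly factors and 2 to 4 of the decay-sensitive transcripts. Of the single genes above, 2410006H16Rik, Eif4b, Ddit3, Tbl2 and Rps13 were called in each of these fits; Eef1b2, Eif4a1, Rack1, Hnrnpa1, Eef1a1, Nhp2, Gar1 and Ruvbl2 were each called in 1 to 3 of the 6. At an unadjusted p under 0.05, 6 protein-coding hosts, 10 TOP messages, 5 core genes and 5 decay-sensitive transcripts were lower and 0 higher, and of the assembly factors 2 were lower and 2 higher. edgeR called 2, 5, 1, 3 and 1 of these 5 lists lower and 0 higher.

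**Figure D5:**
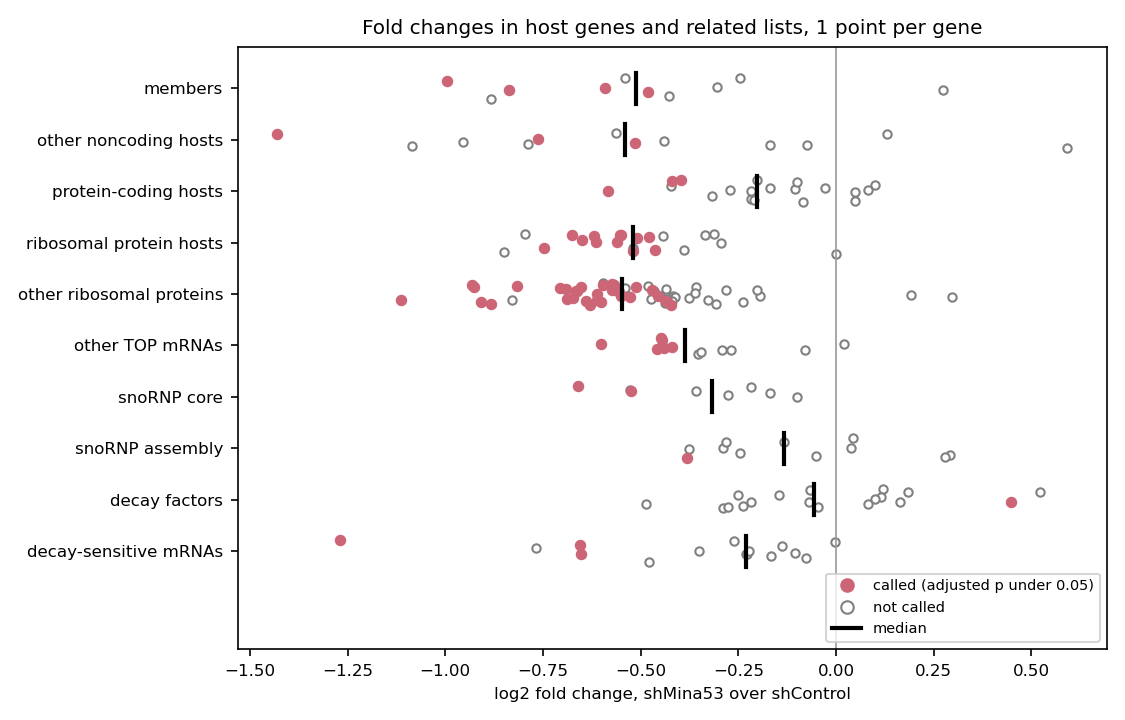
Log2 fold changes of shMina53 over shControl, 1 point per gene tested, for the 10 members and 9 related lists, with called genes filled and a bar at each list's median. The medians of the members (-0.51), the other noncoding hosts (-0.54) and both ribosomal protein lists (-0.52 and -0.55) lie together, and that of the decay factors (-0.06) lies near 0.

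Rows for snoRNA genes themselves had few reads. Of 253 such rows 153 reached a mean of 1, 0 were called lower and 1 higher, with a median log2 fold change of 0.24; at an unadjusted p under 0.05, 1 was lower and 6 higher. The one called was Gm22772, with 1 read over the 3 controls and 16 over the 3 knockdowns, a ratio of 17.6 (exact 95% counting interval 2.73 to 737); the call was lost without shControl 2 or any 1 of the 3 knockdown libraries, with adjusted p up to 0.144. With 1 library left out 0 to 4 of the rows were called higher, and with the length trend removed 3 were higher and the median was 0.81. That curve came from protein-coding genes, and its end value was used for genes shorter than these. The short snoRNA rows were thereby raised by nearly the same amount each, so the last median and calls follow from the end of the curve. edgeR had enough reads to test 24 of these rows, called 0, and gave them a median of -0.05.

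The genes whose log2 values over the 6 libraries followed the members' mean profile most closely, among 12044 candidates with a mean of at least 50, were Chmp5 (Pearson r = 0.997 over 6 libraries), a membrane-sorting subunit, Eef1b2 (0.997), Sra1 (0.996), Cct5 (0.996), a chaperonin subunit, and Rps3a1 (0.995), a ribosomal protein. The points share libraries and scaling, and the values are a description. Chmp5 held 1073, 1161 and 1589 scaled counts in controls and 862, 899 and 910 after knockdown, so it too was highest in shControl 3.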

How the data were processed

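RNA sequencing of 6 mouse neural stem cell libraries was analysed from 1 deposited gene table with a value per gene and library. Per the submitters' processing notes, the build was mm10 and the tools named include HISAT2 2.0.4 and StringTie 1.3.4d, beside edgeR, DESeq2, CASAVA and UMI-tools; the role of each was not given in the sources used here. The deposited values are signal: read counts that the authors had divided by 1 factor per library. Whole reads were recovered for 100% of values within 0.01 reads. The authors also deposited a p-value per gene; its order was that of a DESeq2 p computed from the recovered reads, and it was not used further.

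Groups came from the sample titles. The main test was limma 3.58.1 (trend and robust variance, R 4.3.3) on log2(value + 1) on 21500 genes whose mean reached 1. P-values were two-sided and adjusted by Benjamini-Hochberg over these genes, with a threshold of 0.05. Fold changes are on that log2 scale, which understates changes of low genes. edgeR 4.0.16 (quasi-likelihood) and DESeq2 1.42.0 on recovered reads were alternatives. Positions, lengths and hosted snoRNAs came from GENCODE M21, and starts from RefSeq (GRCm38.p6), by symbol; 25984 of 25996 table genes were in the annotation. Libraries held 13753857 to 16811085 reads on genes; counting intervals cover counting error only.

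The tests were checked on simulated counts drawn from the means of all genes. There limma recovered 69.6% of 194 changed genes with 6 false calls among 21514, and edgeR 87.9% of 149 with 2 among 15076. Recovery was not tested for differences as small as those of most members. The shares and false calls above hold for the drawn counts only and are not rates for the members. The rate of false calls under a trend over gene length, such as that of shControl 3, was not tested. The members, lists and motifs were chosen with earlier results of these data known. Named genes were all members, up to 3 called genes with the smallest adjusted p per list (or up to 2 of the largest mean where none was called), genes that overlap or start within 1000 bases of a member, and the 5 genes most correlated with the members' profile; further genes named with values (Nop56, Ncl, Dkc1, Hspa8, Snrpn, Pabpc1, Nap1l1, Nop10, Fbl, Snu13, Nop58 and Upf1) were chosen after their values were seen.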

Additional observations from a re-analysis of the deposited data

How the results depend on the processing

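The main test called 1776 genes. Over separate fits, limma without trend and robust variance called 32, the replicate block 1178, the replicate block with the length trend removed 3030, and leaving out 1 library 493 to 2781. Of the 10 members, 4 were called in the main test. Limma without trend and robust variance called 0, the length trend removal 1 of 9, the replicate block with the length trend removed 2 of 9, and leaving out 1 library 1 to 6, the most without shControl 1 and the fewest without shControl 2 or shMina53 3. The members' median of -0.51 became -0.24 with the length trend removed, with or without the replicate block, and lay between -0.58 and -0.32 with 1 library left out. Snhg14 turned to -0.15 with the length trend removed, and to -0.15 with the replicate block as well. Under the block alone 3 members were called and Snhg6 reached an adjusted p of 0.0362, while Snhg8 (adjusted p = 0.0551) and Snhg5 (0.05003) did not pass. Same-numbered libraries did not deviate together (Pearson r -0.145, 0.107 and 0.0198 across genes), so the numbers were not taken as pairs. Pseudocounts, filters, TMM and library total rescaling, edgeR and DESeq2 gave 3 to 5 members lower and 0 higher. edgeR called 6.48% of all its genes lower. For the other settings in that list the share of all genes is not given here, so their counts have no background. The length of a gene is a choice: over median transcripts 3 of 9 members were called. Why these settings differ was not tested. Summing several rows of a symbol was not run, since each member had 1 row. At 2 to 7 reads Snhg3 was limited by depth.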
